A study of Rattus norvegicus with 15 samples.

Results

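Carbonic anhydrases are zinc enzymes that turn carbon dioxide and water into bicarbonate and a proton, and back. In the catalytic members a zinc ion held by histidine side chains binds the water that attacks carbon dioxide. The members differ in where they sit: Car2 and Car3 in the cytosol, Car5b in mitochondria, Car4 and Car15 tethered to the outer membrane face by a lipid anchor, and Car9, Car12 and Car14 as transmembrane proteins with the enzyme outside the cell. Car8 and Car11 keep the fold but are regarded as without catalytic activity. In tumours, Car9 is known as a gene switched on by low oxygen, and in human breast cancer CA12 is known as an oestrogen-regulated gene.

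The 10 rat genes of this family followed here were chosen by name: Car2, Car3, Car4, Car5b, Car8, Car9, Car11, Car12, Car14 and Car15. Of these 10 genes, 8 had a probe (1 each) among the 13832 genes that could be named on the array, through the probe's RefSeq accession. Car11 and Car14 matched no probe and were not analysed here. Of the 8, Car2, Car5b, Car8, Car9 and Car15 cleared background on 5 or more of the 15 arrays and these 5 were tested between diets, while Car3, Car4 and Car12 did not reach that and are described only.

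RNA came from 15 samples of tubular or papillary mammary tumours from female Sprague-Dawley rats, 180 days old, numbered 1 to 5 within a diet as in the labels, and each was read on 1 single-colour Agilent array. Early in life the rats of 5 tumours had eaten a zinc-deficient chow with 3 mg/kg, 5 a control chow with adequate zinc at 35 mg/kg, and 5 a zinc-supplemented chow with 180 mg/kg. There were 16 dams in each group, and the chows were eaten by the dams from gestation day 10 and then by their daughters until day 51. All daughters, controls included, then received 50 mg/kg of DMBA, a carcinogen that gives rats mammary tumours, and ate adequate chow until 180 days, so the zinc diets had ended long before the tumours were taken. The labels name the control samples a negative control, taken here to mean adequate zinc, since the deficient and supplemented samples are named outright. Whether tumours of a diet came from separate litters or animals is not stated, so a p-value covers only tumour-to-tumour spread, part of which may be technical. A free-text label gives mammary gland at day 21 instead, and the tissue and age fields were followed.

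Levels below are on a log2 scale on which the 75th percentile of each array is 0, and a probe is called detected where its spot was well above background by the scanner software. The arrays differed in brightness: 31.9% to 55.3% of the non-control spots were detected, and the 75th percentile of the signal ran from 50.7 to 177. A dim member therefore has its lowest levels at background, and levels of different probes were not set against each other. Of 17 mammary epithelial markers 16 had a probe and 15 of these were tested; Epcam, Cdh1, Krt8, Krt18, Krt19, Krt5 and Krt14 were detected on 15 of 15 arrays. Of the endothelial markers Kdr was detected on 15 arrays and Pecam1 on 1, and the oestrogen receptor gene Esr1 was detected on 3.

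No carbonic anhydrase differed between the diets beyond the spread of the tumours after correction. With limma 0 of 21014 probes passed in each pairwise comparison (adjusted p under 0.05, 0% called). At an unadjusted p under 0.05, 821 probes passed for deficient minus control (3.91%), 415 for supplemented minus control (1.97%) and 1482 for supplemented minus deficient (7.05%). Among the 5 tested carbonic anhydrases the corresponding numbers were 0, 1 and 0, the one gene being Car15. The median log2 difference of the 5 was 0.25 for deficient minus control, 0.0060 for supplemented minus control and -0.38 for supplemented minus deficient, beside medians of -0.0046, -0.0067 and -0.0010 over all tested probes. Of the 5, 3, 3 and 1 were higher in the group named first. Over all probes 49.3%, 48.8% and 49.9% were higher. For 0 of the 5 did the tumours of a pair of diets not overlap, where 0.39% of all probes showed no overlap between deficient and control, 0.357% between supplemented and control and 1.5% between supplemented and deficient tumours. The comparisons share their tumours and are not independent of each other.

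**Figure D1:**
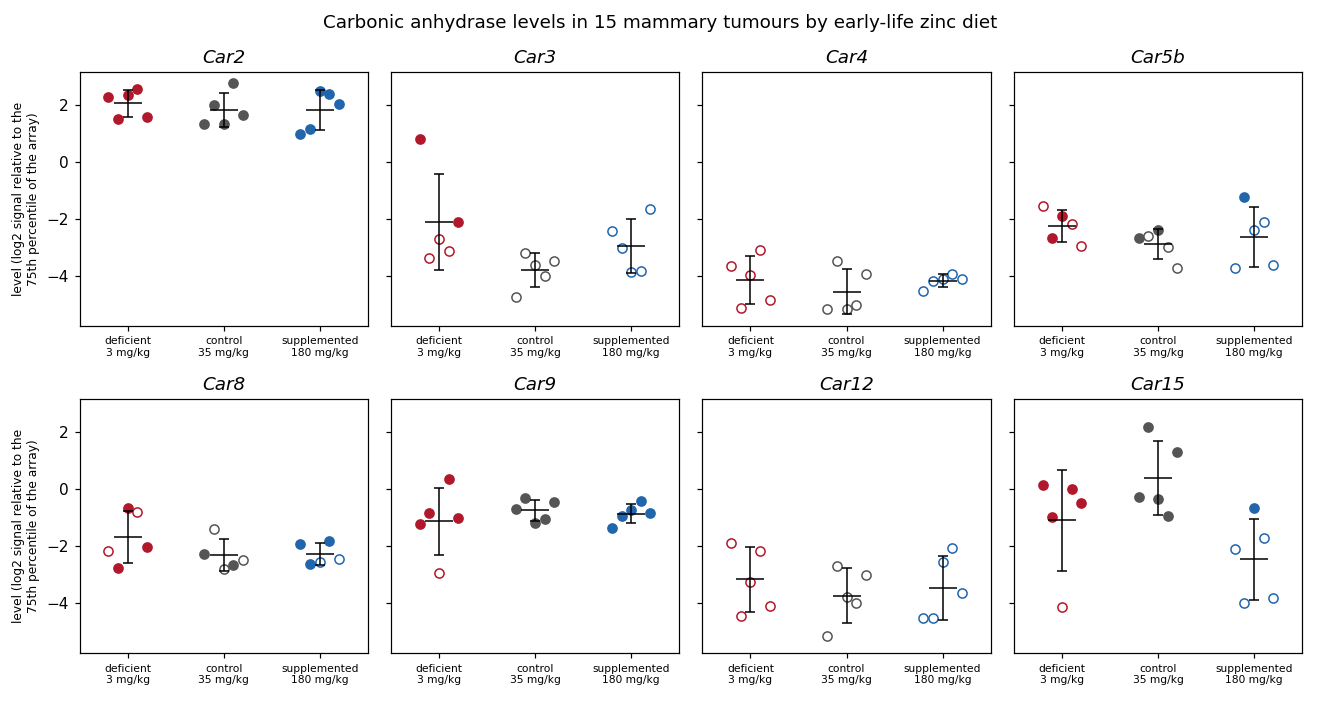
Level (log2 signal with the array's 75th percentile at 0, vertical axis) of each carbonic anhydrase with a probe in each tumour, by early-life diet in order of dietary zinc (horizontal axis). Filled points were well above background and open points were not, and bars give the mean and SD over 5 tumours. Car2 was detected in all 15 tumours and Car12 and Car4 in 0, while Car15 was detected in 4 deficient, 5 control and 1 supplemented tumour.

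Car15, the lipid-anchored member that is active in rodents, was the carbonic anhydrase that varied most. Its level was 0.15, -0.99, -4.13, 0.0035 and -0.50 in the 5 deficient tumours. It was -0.26, 2.17, -0.35, -0.92 and 1.31 in the 5 control tumours and -2.10, -3.98, -0.67, -1.71 and -3.81 in the 5 supplemented ones. The control tumours were the highest as a group, 4 of 5 supplemented tumours lay below every control tumour, and supplemented tumour 3 fell inside the control range. In processed signal, before scaling, Car15 read 6.27 to 126 in deficient, 88.3 to 252 in control and 7.37 to 66.5 in supplemented tumours. That scale is not adjusted for the brightness of the array. The share of all probes without overlap was not computed on it, so the gap between supplemented and control tumours there cannot be judged.

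The mean level of Car15 was -1.09 ± 1.76 in deficient tumours, 0.39 ± 1.30 in control tumours and -2.45 ± 1.42 in supplemented tumours (SD, n = 5 each). The probe was detected in 4 deficient, 5 control and 1 supplemented tumour. The log2 difference was -2.84 for supplemented minus control, with a 95% interval from -4.61 to -1.07. It ranked 13 of 21014 probes by p for that comparison (unadjusted p = 0.00363) but did not pass (limma, adjusted p = 1.000). In bulk tumours, fewer cells of a type and less RNA per cell cannot be told apart.

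Every slide carried all 3 diets, with 1 or 2 tumours of a diet on each. The mean of Car15 was lower in supplemented than in control tumours on 4 of 4 slides, by -4.50 to -1.35. On the 2 scan days the difference was -2.77 and -3.21. These are the same tumours regrouped, not further replicates. How many of all probes kept 1 sign over the slides was not computed, for Car15 or any other member. Car15 was not detected in 4 of 5 supplemented tumours, and the size of its difference depended on the processing. With a normexp background correction of median signals, which adds 50 to each signal before the logarithm, the difference was -1.10. In the authors' deposited log2 values it was -1.15. The cause of this dependence was not tested. In both sets of values the supplemented tumours still overlapped the control tumours, through supplemented tumour 3.

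**Figure D2:**
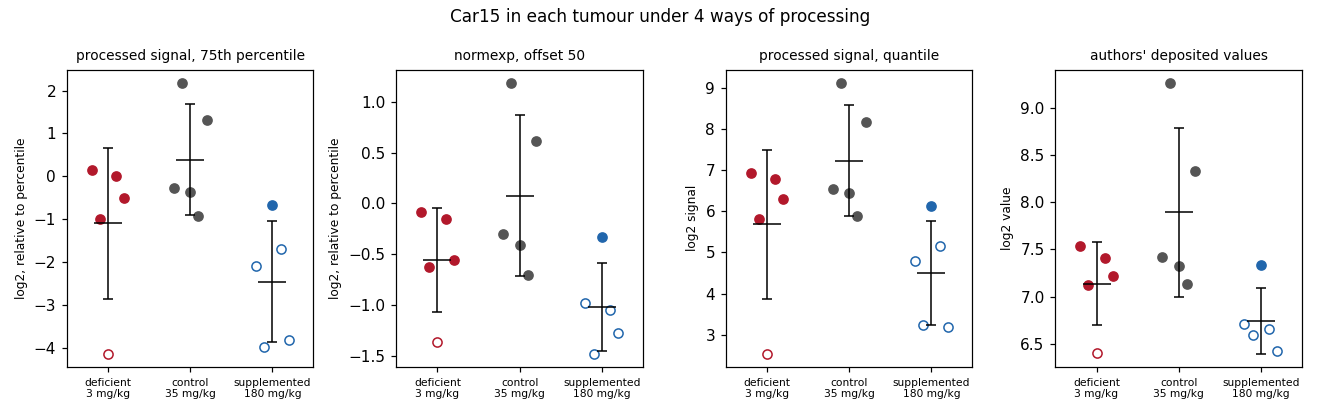
Car15 in each of 15 tumours under 4 ways of processing, with each vertical axis on its own log2 scale and the diets in order of dietary zinc on the horizontal axis. Filled points were well above background and open points were not, and bars give the mean and SD over 5 tumours; control tumours 2 and 5 were the highest under each way, and supplemented tumour 3 lay among the other control tumours.

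For deficient minus control the difference of Car15 was -1.48 (95% interval -3.25 to 0.29, limma adjusted p = 0.987), and it rested partly on deficient tumour 3, without which it was -0.72. It was negative on 3 of 4 slides. For supplemented minus deficient it was -1.36 (-3.13 to 0.41, adjusted p = 0.751), also negative on 3 of 4 slides. It was -2.12 without deficient tumour 3 and -0.58 without the 3 dimmest arrays, of which deficient tumours 1 and 4 are 2. The mean of Car15 was thus lower in both extreme diets than in the control. Its medians were -0.50, -0.26 and -2.10 in deficient, control and supplemented tumours. No slope over log2 dietary zinc was found (-0.18 ± 0.17 per doubling, SE, limma adjusted p = 0.807). For the slope 0 of 21014 probes were called, and 7.69% had an unadjusted p under 0.05. The F test over the 3 diets gave Car15 an unadjusted p of 0.0128 and an adjusted p of 0.990 (0 called, 4.03% at an unadjusted p under 0.05).

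Car9 is the hypoxia-induced enzyme on the surface of tumour cells. Its level was -1.22, -0.83, -2.92, 0.35 and -0.998 in deficient tumours. It was -0.68, -0.31, -1.19, -1.03 and -0.46 in control tumours and -1.35, -0.94, -0.71, -0.42 and -0.83 in supplemented ones. The groups overlapped throughout, and the deficient group held both the lowest and the highest of the 15 tumours. Deficient tumour 3, its only tumour where Car9 was not detected, was also the lowest for Car15.

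The means of Car9 were -1.12 ± 1.17 in deficient, -0.73 ± 0.37 in control and -0.85 ± 0.34 in supplemented tumours, with SD over 5 tumours. The log2 difference was -0.39 for deficient minus control (95% interval -1.28 to 0.50) and 0.059 without deficient tumour 3. It was -0.12 for supplemented minus control (-1.01 to 0.77) and 0.27 for supplemented minus deficient (-0.62 to 1.16), and this last difference was -0.18 without deficient tumour 3. Limma's adjusted p lay between 0.896 and 1.000. Within slides, with 1 or 2 tumours of a diet on each, the deficient mean was lower than the control mean on 4 of 4, by -0.53 to -0.097. Single tumours did not all follow this order. On their shared slides, deficient tumour 4 (0.35) lay above control tumour 3 (-1.19), and deficient tumour 5 (-0.998) above control tumour 4 (-1.03).

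The low-oxygen genes listed beside Car9 were also not called. Of 25 such genes 22 were tested and 0 passed in any comparison. For deficient minus control 7 were higher and 15 lower (median -0.071), for supplemented minus control 13 and 9 (median 0.071), and for supplemented minus deficient 14 and 8 (median 0.14). Slc2a1, the glucose transporter GLUT1, stood at 3.32 ± 0.35, 3.28 ± 0.29 and 3.27 ± 0.41, and Vegfa, the growth factor for blood vessels, at 3.75 ± 0.83, 3.43 ± 0.22 and 3.33 ± 0.43, in deficient, control and supplemented tumours (SD, n = 5 each). The glycolytic genes with an unadjusted p under 0.05 were Tpi1, at -0.57 for deficient minus control, and Pgk1, at 0.63 for supplemented minus deficient, with Pfkfb3, which makes an activator of glycolysis, at -0.53 for supplemented minus deficient. Pfkfb3 was detected in 0 supplemented and 3 deficient tumours.

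Across the 15 tumours Car9 and the mean level of the 22 low-oxygen genes had a Pearson r of 0.34 (permutation p = 0.220) and a Spearman rho of 0.48 (permutation p = 0.0731). The r was 0.54 without deficient tumours 3 and 4, the farthest from the median of Car9, and 0.36 and 0.56 on the 2 scan days (8 and 7 tumours). With 17 relations computed, the adjusted values were 0.639 and 0.323.

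Where a promoter window was given, from 250 bases before to 50 after the gene's start, its sequence was searched on both strands for ACGTG, the core bound by hypoxia-inducible factors, and for TGCACNC or TGCGCNC, the core bound by the zinc-sensing factor MTF-1. The windows come from RefSeq (build GRCr8) and cover 7 of the 10 genes, those of Car4, Car5b, Car9, Car11, Car12, Car14 and Car15. ACGTG was found in 5 of the 7, beside 19.3% of 33469 promoter windows, and a metal core in 2 (Car11 and Car12), beside 24.2%. A match is only a match of letters. The windows of Car9, Car12 and Car15 are shown in lower case with matches in capitals. These were chosen because Car9 and Car12 are the members known for low oxygen and Car15 varied most over the 15 tumours. Each is given 5′ to 3′ on the gene's strand, which is the plus strand for all of them, at chr5:62558774-62559073 for Car9, chr8:76169565-76169864 for Car12 and chr11:96651189-96651488 for Car15.
Car9: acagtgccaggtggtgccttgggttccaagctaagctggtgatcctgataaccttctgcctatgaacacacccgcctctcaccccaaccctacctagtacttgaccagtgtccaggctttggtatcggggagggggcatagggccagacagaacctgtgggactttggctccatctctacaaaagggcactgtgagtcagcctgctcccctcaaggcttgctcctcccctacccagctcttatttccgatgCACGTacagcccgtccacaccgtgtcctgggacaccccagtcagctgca
Car12: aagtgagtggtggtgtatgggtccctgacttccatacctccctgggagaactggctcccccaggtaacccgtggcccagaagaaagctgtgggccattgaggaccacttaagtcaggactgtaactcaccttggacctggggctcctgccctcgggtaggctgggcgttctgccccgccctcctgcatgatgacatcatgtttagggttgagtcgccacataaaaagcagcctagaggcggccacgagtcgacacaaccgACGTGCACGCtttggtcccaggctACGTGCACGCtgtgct
Car15: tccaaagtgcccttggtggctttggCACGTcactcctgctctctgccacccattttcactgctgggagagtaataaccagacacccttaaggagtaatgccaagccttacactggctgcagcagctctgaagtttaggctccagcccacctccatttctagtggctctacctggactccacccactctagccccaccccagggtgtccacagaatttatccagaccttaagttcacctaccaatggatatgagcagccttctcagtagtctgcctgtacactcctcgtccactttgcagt
In Car9 the match begins at base 252 of the window, just after the start, and in Car15 at base 26, far before it; both are ACGTG read on the minus strand. In Car12 ACGTG begins at bases 261 and 285, and in both places it overlaps a TGCACNC that begins at bases 264 and 288, so the capitals run together. Neither metal core was found in the windows of Car9 and Car15.

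Car12, an enzyme of epithelial cell surfaces, was detected in 0 of 15 tumours with this probe. Its measured levels, all at background, lay between -4.44 and -1.87 in deficient, between -5.14 and -2.70 in control and between -4.52 and -2.06 in supplemented tumours. Among 16 oestrogen response genes 11 were tested and 0 passed; 5 were higher in deficient than in control, 4 in supplemented than in control and 7 in supplemented than in deficient tumours, with medians of -0.038, -0.073 and 0.15. Esr1 itself was detected in 0 deficient, 2 control and 1 supplemented tumour. The progesterone receptor gene Pgr, an oestrogen target, had a log2 difference of 0.76 for supplemented minus deficient (limma adjusted p = 0.666), and Igfbp5, which binds insulin-like growth factors, differed by 1.06 for deficient minus control (adjusted p = 0.987) and by -1.13 for supplemented minus deficient (adjusted p = 0.678).

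Car2, the fast cytosolic enzyme that is abundant in red cells and osteoclasts and is also made by many epithelia, was detected in all 15 tumours. Its level was 2.26, 1.51, 2.36, 2.57 and 1.58 in deficient tumours. It was 1.32, 1.98, 1.35, 2.76 and 1.64 in control tumours and 0.97, 1.17, 2.50, 2.40 and 2.04 in supplemented tumours. The highest tumour was a control and the lowest a supplemented one, and the groups overlapped. The means were 2.06 ± 0.48, 1.81 ± 0.59 and 1.82 ± 0.71 in deficient, control and supplemented tumours (SD, n = 5 each).

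The log2 difference of Car2 was 0.25 for deficient minus control (95% interval -0.49 to 0.99), 0.0060 for supplemented minus control (-0.73 to 0.75) and -0.24 for supplemented minus deficient (-0.98 to 0.50), with limma adjusted p of 0.987, 1.000 and 0.891. The intervals leave room for changes of up to 0.99 log2 units, so the data do not show that the diets gave like levels. Within slides the supplemented minus control difference ran from -0.35 to 1.05.

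Red cell genes are given beside Car2 because red cells carry much of this enzyme. Of 13 erythrocyte genes 6 were tested; all 6 had a higher mean in deficient than in control tumours (median log2 difference 1.32, and 0.83 without deficient tumour 1) and all 6 a lower mean in supplemented than in deficient tumours (median -2.01), with 0 called. The haemoglobin gene Hbb-b1 differed by 1.40 for deficient minus control and by -2.09 for supplemented minus deficient, and Ahsp, which steadies free alpha globin, by 1.26 and -1.59. Alas2, which starts haem synthesis in the erythroid lineage, differed by 1.80 and -2.87, and Hba-a3 by -2.30 for supplemented minus deficient (limma adjusted p between 0.615 and 0.987 for these genes). The mean level of the list ran from 1.12 to 3.33 in deficient tumours, with tumour 1 the highest and the next at 1.71, from -0.74 to 1.70 in control tumours and from -0.59 to 0.24 in supplemented tumours. Slc4a1, Epb42 and Rhag, all red cell membrane genes, were detected in 0 tumours. Over the 15 tumours Car2 and the list had a Pearson r of 0.31 (permutation p = 0.271) and a Spearman rho of 0.30 (permutation p = 0.273), 0.657 and 0.663 after adjustment over the 17 relations. The r was 0.13 without supplemented tumours 1 and 2, the farthest from the median of Car2, and 0.11 and 0.55 on the 2 scan days. The red cell gene Car1, not among the 10, was detected on 7 arrays and differed by -0.031, -0.52 and -0.49 in the same 3 comparisons (adjusted p between 0.810 and 1.000).

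Car3, a cytosolic form made in quantity by skeletal muscle and adipocytes, was detected in 2 tumours, both deficient. Its level was 0.79, -3.36, -2.71, -3.12 and -2.08 in deficient tumours, with tumours 1 and 5 detected. It was -4.72, -3.20, -3.60, -3.99 and -3.45 in control tumours and -2.41, -3.01, -3.86, -3.81 and -1.63 in supplemented tumours, with 0 detected in either. Deficient tumour 1 stood far above the rest, and supplemented tumour 5 was the highest of those not detected.

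The same tumours led the adipocyte markers. The mean level of the 6 tested of 15 adipocyte genes was 1.86 in deficient tumour 1, 1.11 in supplemented tumour 5 and 0.12 in deficient tumour 5, and at most -0.31 in every other tumour. Lep, Cidec and Aqp7 were detected in 0 tumours. By diet this mean ran from -0.82 to 1.86 in deficient, from -0.997 to -0.34 in control and from -0.88 to 1.11 in supplemented tumours. All 6 adipocyte genes had a higher mean in deficient than in control tumours, with a median log2 difference of 0.58 and 0 called. That median was 0.26 without deficient tumour 1 and 1.04 without deficient tumour 4. The muscle markers spanned -1.05 to 0.92, -0.90 to 0.10 and -0.66 to 0.51 in deficient, control and supplemented tumours, over 6 tested of 14 genes. The median log2 difference of the muscle genes was 0.12 for deficient minus control. It was -0.068 without deficient tumour 2 and 0.31 without deficient tumour 3. Tnni2, a troponin of fast muscle named for its unadjusted p, differed by 1.12 in that comparison (limma adjusted p = 0.987). Adipoq, the adipocyte hormone adiponectin, was detected in 3 deficient, 1 control and 2 supplemented tumours. The part of fat or muscle tissue in Car3 was not tested.

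Car5b, the mitochondrial enzyme, was detected in 2 deficient, 2 control and 1 supplemented tumour. Its level was -1.52, -2.65, -1.88, -2.18 and -2.93 in deficient tumours, -2.67, -2.58, -2.38, -2.98 and -3.72 in control tumours, and -3.72, -1.24, -2.40, -2.11 and -3.62 in supplemented tumours. Supplemented tumour 2 was the highest of all, and the groups overlapped. The log2 difference was 0.63 for deficient minus control (95% interval -0.28 to 1.54), 0.25 for supplemented minus control (-0.66 to 1.16) and -0.38 for supplemented minus deficient (-1.29 to 0.53), with limma adjusted p between 0.853 and 1.000. Without supplemented tumour 2 the supplemented minus control difference was -0.095.

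Car8, a carbonic anhydrase-related protein known to bind the IP3 receptor of Purkinje cells, was detected in 3 deficient, 2 control and 3 supplemented tumours. Its level was -2.16, -2.74, -0.65, -0.79 and -2.02 in deficient tumours, -2.26, -1.39, -2.80, -2.64 and -2.46 in control tumours, and -1.90, -2.62, -2.54, -1.82 and -2.45 in supplemented tumours. Deficient tumours 3 and 4 stood above the other 13. The log2 difference was 0.64 for deficient minus control (95% interval -0.16 to 1.44), 0.046 for supplemented minus control (-0.75 to 0.84) and -0.59 for supplemented minus deficient (-1.39 to 0.20), with limma adjusted p between 0.758 and 1.000. Without deficient tumour 3, deficient minus control was 0.39 and supplemented minus deficient was -0.34. The difference between deficient and control tumours ran from -1.35 to 2.08 within the 4 slides.

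**Figure D3:**
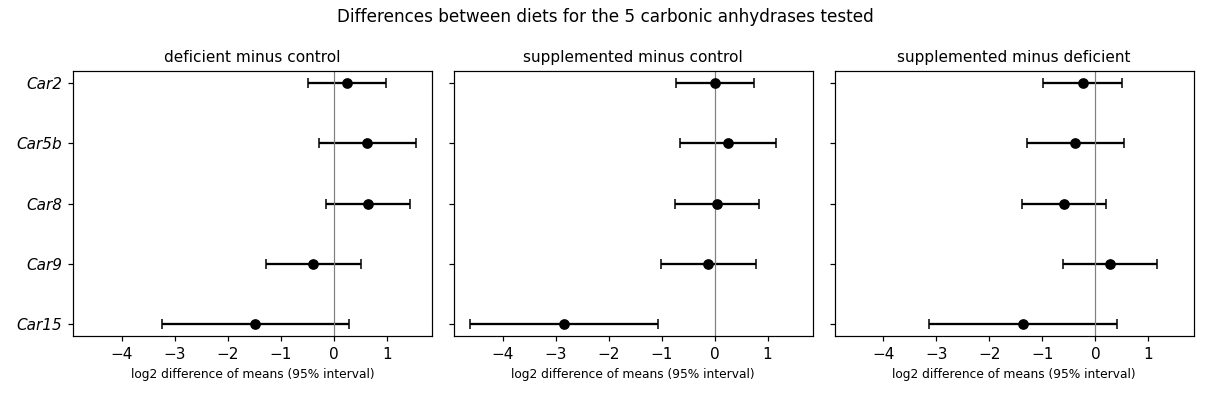
Log2 difference of mean level between diets (horizontal axis) for the 5 carbonic anhydrases tested, with 95% intervals from limma, in a panel for each comparison. Of the 15 intervals the one of Car15 for supplemented minus control, from -4.61 to -1.07, lies off 0.

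Car4, the enzyme of capillary endothelium, was detected in 0 of 15 tumours, at levels between -5.16 and -3.06. Of 10 endothelial markers 4 were tested: Kdr, the main receptor for VEGF on endothelium, was detected in 15 tumours, Esam in 9, Cdh5 in 7 and Cldn5 in 6, while Tie1 and Emcn were detected in 0. The mean level of the 4 ran from -1.21 to -0.84 in deficient, from -1.46 to -0.56 in control and from -1.96 to -0.74 in supplemented tumours. Of the family members outside the 10, Car5a, Car7 and Car13 were detected in 0 tumours and Car6 in 1, deficient tumour 1. In the rat assembly Car2, Car3, Car1 and Car13 follow each other in that order on chromosome 2 with no other protein-coding gene between them. Of these neighbours, Car2 was detected in 15 tumours, Car3 in 2, Car1 in 7 and Car13 in 0.

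The spread of the tested members over the tumours was large for their array. The SD over 15 tumours was 1.84 for Car15, 0.75 for Car5b, 0.70 for Car9, 0.68 for Car8 and 0.57 for Car2, where the median tested probe had 0.39. For Car15 the SD exceeded that of 99.9% of tested probes, and for Car2 that of 78.2%. Dim probes have wider log2 spreads, and Car5b, Car8 and Car15 were detected on only 5, 8 and 10 arrays. For Car15 the lowest levels were all in tumours where it was not detected, so its SD rests partly on readings at background.

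The members did not move together detectably. Of the 10 pairs of tested members, Car9 and Car15 had the highest Pearson r over the 15 tumours, 0.56 (permutation p = 0.0319, adjusted p = 0.181 over the 17 relations), with a Spearman rho of 0.48 (permutation p = 0.0759, adjusted 0.323). It was 0.63 and 0.57 on the 2 scan days. Without deficient tumours 3 and 4, the farthest from the median of Car9, it was 0.37. The other 9 pairs had r between -0.18 and 0.36. With array brightness, the share of spots detected, Car2 had an r of -0.57 and Car8 of -0.60, and the remaining members had -0.33 (Car9), -0.25 (Car15) and -0.12 (Car5b). The adjusted permutation p of these 5 was 0.181 or above. The part of brightness in the differences between diets was examined with brightness as a covariate: the Car15 difference was then -3.06 for supplemented minus control.

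The genes whose levels followed each member most closely over the 15 tumours were listed by Pearson correlation among 8292 named genes, as a description. All values share the scaling of their array. Those of Car2 were Lcn2, the iron-carrier binding protein lipocalin 2 (r = 0.87), the fatty acid desaturase gene Fads1 (0.80) and the actin capping gene Capzb (0.76). Those of Car9 were the matrix protein gene Ccn3 (0.88), the peptidylarginine deiminase gene Padi3 (0.86) and Rere (0.84). Those of Car15 were the olfactory receptor Or2y11 (0.84), the keratin Krt33a (0.83) and Afap1 (0.82), which binds actin filaments, and those of Car5b were Map9 (0.87), Bmp2 (0.86) and the EGF receptor ligand Tgfa (0.82). Of these 12 genes, Or2y11 and Bmp2 were detected on 6 arrays each.

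Bicarbonate and protons made by these enzymes leave or enter cells through carriers, and those carriers were not called either. Of 19 bicarbonate and chloride exchange genes 7 were tested, with 5 higher in deficient than in control, 4 in supplemented than in control and 3 in supplemented than in deficient tumours, and medians of 0.078, 0.054 and -0.13. The sodium bicarbonate cotransporter Slc4a4 had a level of -0.18 ± 1.09 in deficient, -1.16 ± 0.31 in control and -1.47 ± 0.73 in supplemented tumours (SD, n = 5 each), log2 differences of 0.98 for deficient minus control (limma adjusted p = 0.987) and -1.28 for supplemented minus deficient (adjusted p = 0.666). The related Slc4a8 was lower in supplemented than in deficient tumours by a mean of -0.58 (adjusted p = 0.666). Slc4a2, an anion exchanger, had means of -2.20, -1.63 and -1.57, and Slc4a7 of -0.83, -0.91 and -0.47, in deficient, control and supplemented tumours.

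Of 25 proton and lactate export genes 12 were tested, with 6, 6 and 8 higher in the same 3 comparisons and medians of 0.018, 0.0013 and 0.031. The proton pump subunit Atp6v1b2 had an unadjusted p under 0.05 in 2 comparisons, at 0.59 for supplemented minus control and 0.53 for supplemented minus deficient (limma adjusted p = 1.000 and 0.701). The lactate carrier Slc16a3 stood at 3.38 ± 0.78, 3.92 ± 0.29 and 3.92 ± 0.84 and its partner Bsg at 5.93 ± 0.58, 6.19 ± 0.46 and 6.13 ± 0.36, in deficient, control and supplemented tumours (SD, n = 5 each).

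**Figure D4:**
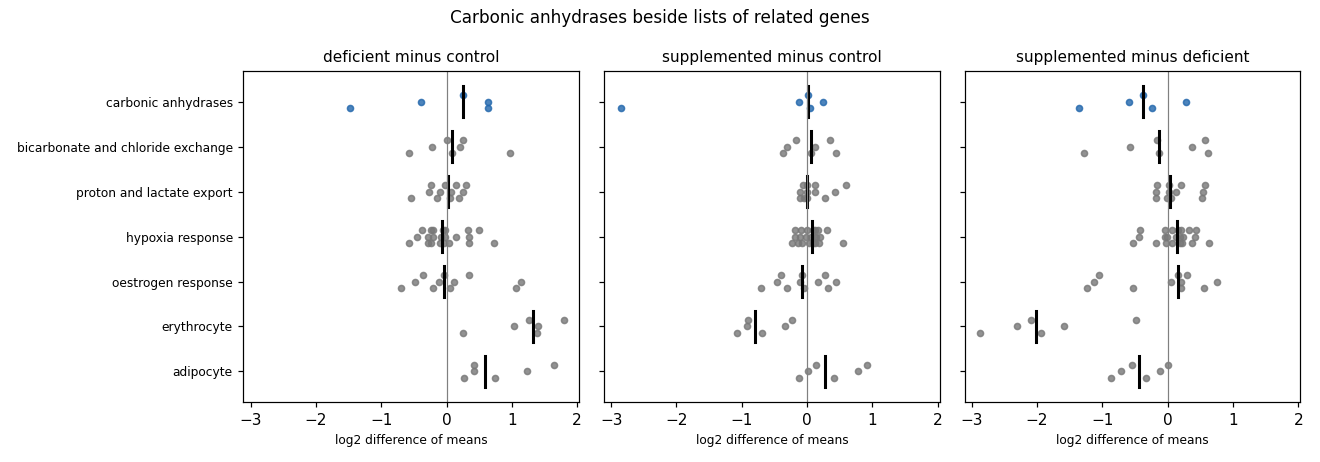
Log2 difference of mean level between diets (horizontal axis) for each tested gene of the carbonic anhydrases and of 6 lists (vertical axis), in a panel for each comparison; black bars mark list medians. Car15 is the leftmost carbonic anhydrase in each panel, and the erythrocyte list has medians of 1.32, -0.80 and -2.01.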

How the data were processed

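Total RNA was measured on 15 single-colour arrays, 1 for each tumour. The scanner files that the authors deposited hold spot intensity on a linear scale, with background subtracted and spatial trend removed by the scanner software (Agilent Feature Extraction; the version is 11.5.1.1 per the file headers and 15.5 per the submitters' processing notes). The authors also deposited a table of log2 values for 30002 of 41012 probes, whose normalization is not given in the sources used here; Car3 and Car4 are not among its rows used here.

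Levels are log2 of the processed signal, less each array's 75th percentile, without spots marked as outliers and with spots of a probe averaged (263 probes had 10 spots each). Probes that cleared background on 5 or more arrays were kept (21014, with 39 missing values, 8381 genes). Of all probes 42.7% matched a single gene by accession in the RefSeq table of assembly GRCr8. The diets were compared with limma 3.58.1 under R 4.3.3, by two-sided moderated tests from lmFit and eBayes with 12 residual degrees of freedom and Benjamini-Hochberg adjustment over all tested probes at a threshold of 0.05. The fitting script was tested on simulated data. Correlations used two-sided permutation tests with 100000 resamples (scipy 1.17.1).

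The genes and lists were chosen with earlier results of these data known. Genes were named by rule: the 10 family members and other family members on the array; for the 3 tested members with the largest SD and for Car2 and Car9 (Car12 was also meant but not tested), the 3 genes with the highest correlation; and list genes with an unadjusted p under 0.05 (at most 4 for each list and comparison, smallest p first) or fixed by name, not all of which are reported here. The list of macrophages and osteoclasts had 10 tested genes and 0 called. For deficient minus control its median was -0.14, while Cd14, named by the rule, was at 0.73. The epithelial list had 15 and 0, with a median of -0.073 in that comparison, while Elf5 was at 1.14. The 17 relations were chosen after the files were read. Alternatives were other background corrections, normalizations and filters, the deposited values, blocks for slide, scan day and replicate number, array weights, brightness, and leaving out arrays. Precision is limited by the number of arrays, with a median half-width of the 95% intervals of 0.51 log2 units over all tested probes, for deficient minus control. The tested members had wider intervals than this. In that comparison the narrowest was -0.49 to 0.99 (Car2) and the widest -3.25 to 0.29 (Car15). Replicate numbers are shared between diets but gave no pairs: the correlation of deviations from diet means between same-numbered tumours ran from -0.28 to 0.22, over 0.1 in 6 of 15 pairs.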

Additional observations from a re-analysis of the deposited data

Results flagged for a closer look

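Car15 in deficient tumour 3 stood apart from the other deficient tumours: its level was -4.13, against -0.99 in the next lowest, a gap of 0.734 of the group's range where 0.71 is the limit for 5 samples at the 95% level. It was the only one flagged of 24 groups examined (8 genes in 3 diets), and chance flags about 1 in 20. Car9 was not detected in that tumour either, at -2.92, while Car8 was at its highest there, -0.65.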

How the results depend on the processing

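Over 15 member differences, 378 values under alternative settings were computed; 0 were called (lowest limma adjusted p = 0.480) and 22 changed sign. For Car2, deficient minus control was -0.15 with array weights, and supplemented minus control was -0.027 with quantile normalization, -0.012 with the deposited values, -0.18 with array weights and -0.099 with brightness as a covariate, and -0.17 to 0.24 with single arrays left out; supplemented minus deficient was 0.00083 without the 3 dimmest arrays. For Car8, supplemented minus control was -0.018 with the deposited values, -0.079 with brightness, and -0.076 to 0.28 with single arrays left out. With single arrays left out, Car5b ran from -0.095 to 0.53 for supplemented minus control, and Car9 from -0.76 to 0.059 for deficient minus control, -0.23 to 0.0076 for supplemented minus control and -0.18 to 0.64 for supplemented minus deficient. Differences of dim members were smaller with normexp and the deposited values: Car5b was 0.23 and 0.12 for deficient minus control and -0.081 and -0.015 for supplemented minus deficient, Car8 was 0.21 and 0.075, and -0.20 and -0.093, and Car9 was -0.081 and -0.12 for deficient minus control. Car15 kept its sign under all settings run, from -3.29 to -1.10 for supplemented minus control. Of 21014 probes, array weights called 1 each for deficient minus control, supplemented minus deficient and the F test; leaving out single arrays called 0 to 1 for supplemented minus deficient and for the slope, 1 without supplemented replicate 1. The cause was not tested. With a replicate block the Car15 differences were the same in size (-2.84 for supplemented minus control, adjusted p = 1.000), and 0 probes were called. Of 780 values of the list medians, 20 moved by more than the spread between tumours. Normexp used median signals, since no mean signal column was used here, and local backgrounds marked as outliers were replaced by their array's median after a first fit gave implausible values; both were chosen after seeing the data; averaging the probes of a gene was not run because each member had 1 probe. Only 1 of the 5 tested members, Car2, was detected on all 15 arrays, so low signal limits the others.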
